A study of Caenorhabditis elegans with 66 samples.

Results

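*F29D10.3* and *fbxa-107* are 2 protein-coding genes of *C. elegans* that were nearly lost from polyA-selected RNA of *rpb-9* mutants. They were selected on their low counts and log2 fold changes in that comparison, so these values describe the choice and carry no test here. They are 2 of the 46740 genes of the deposited count tables and 2 of the 14275 genes tested in the polyA libraries. The RNA-seq libraries used here came from whole animals of *C. elegans*, grown on plates seeded with HB101 bacteria. The stage of the animals used for RNA-seq is not given in the sources used here. The mutants were *rpb-9* (*mj261*), an allele from a chemical mutagenesis screen with a premature stop codon in a small RNA polymerase II subunit, and *prg-1* (*n4357*), a mutant of the Argonaute that binds piRNAs. Each was set against wild-type animals that carry a piRNA sensor, a germline GFP transgene that piRNAs silence, and reads on that sensor were counted in every genotype. There were 3 libraries of each genotype in each of 2 tables, polyA-selected RNA for *rpb-9* and Ribo-Zero RNA, in which ribosomal RNA is depleted and no polyA tail is selected, for *prg-1*. The labels do not say whether the libraries of a genotype came from separate cultures, so p-values measure the spread between these libraries, which may be technical.

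F-box proteins are the substrate adaptors of SCF ubiquitin ligases. They bind a Skp1-related protein, which in *C. elegans* is encoded by the *skr* genes, and through it the cullin CUL-1 and the RING protein RBX-1. The *fbxa* genes are a greatly expanded family of F-box genes in *Caenorhabditis*, often found in clusters along a chromosome arm. *F29D10.3* is described in RefSeq as a PAN-3 domain-containing protein. PAN modules are known from other proteins as folds that bind proteins or carbohydrates.

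*F29D10.3* (WBGene00009252) lies on chromosome I of ce11 (WBcel235), between 8842552 and 8845595 on the minus strand, with 5 exon blocks that add up to 975 bases. None of its sequence is printed here.

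*fbxa-107* (WBGene00012564) lies on chromosome V between 18123977 and 18125245 on the plus strand, with 4 exon blocks and 1033 exonic bases. Reads of 50 bases were counted with fractions for reads that map to several places, so close copies of a gene can blur its counts. All 730 windows of 50 bases inside the exons of *F29D10.3* and all 845 of *fbxa-107* were unique in the genome with up to 2 mismatches, against 33 of 263 windows of the repeated histone gene *his-1*. The counts of both genes were whole numbers in every library.

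The *fbxa* gene closest in sequence to *fbxa-107* was *fbxa-108*, with 816 identical bases over 1036 aligned bases (78.8%). A stretch of 120 bases from exon block 3 of *fbxa-107* and its counterpart in *fbxa-108* are shown because the polyA values of these 2 genes differ below. They are read 5′ to 3′ on the coding strand of each gene, and capitals mark the 26 bases that differ between them.
fbxa-107: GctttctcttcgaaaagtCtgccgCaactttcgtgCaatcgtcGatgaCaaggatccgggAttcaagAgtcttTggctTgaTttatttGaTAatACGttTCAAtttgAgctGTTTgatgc
fbxa-108: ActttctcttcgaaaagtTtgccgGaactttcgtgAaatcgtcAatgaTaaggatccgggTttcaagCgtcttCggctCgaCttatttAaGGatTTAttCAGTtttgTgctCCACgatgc
The first lies at chrV:18124284-18124403 on the plus strand and the second at chrV:17657718-17657837 on the minus strand of ce11.

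In polyA RNA, *F29D10.3* had 4, 5 and 7 counts in *rpb-9* animals, against 945, 1014 and 1127 counts in wild-type animals. Every *rpb-9* library was low and every wild-type library high, with no overlap. Scaled by library total and TMM factor to counts per 1000000 (CPM), these were 0.156 ± 0.0379 CPM in *rpb-9* and 40.7 ± 3.70 CPM in wild type (SD, n = 3 each). The *rpb-9* mean was 0.384% of the wild-type mean, a log2 fold change of −7.98 with a standard error (SE) of 0.21. The wild-type level, 41.7 CPM per kb of exon, was above that of 73.3% of the genes tested. A gene needed 10 counts in 3 libraries to be tested, and *F29D10.3* passed through its wild-type libraries alone.

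*fbxa-107* had 23, 20 and 13 counts in *rpb-9* animals, against 417, 454 and 458 counts in wild-type animals. Again the genotypes did not overlap. The mean was 0.555 ± 0.171 CPM in *rpb-9* and 17.5 ± 1.30 CPM in wild type (SD, n = 3 each), so that 3.17% of the wild-type level was left. The log2 fold change was −4.98 (SE 0.23). In wild type, *fbxa-107* stood at 17.0 CPM per kb, above 59.0% of the genes tested.

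**Figure D1:**
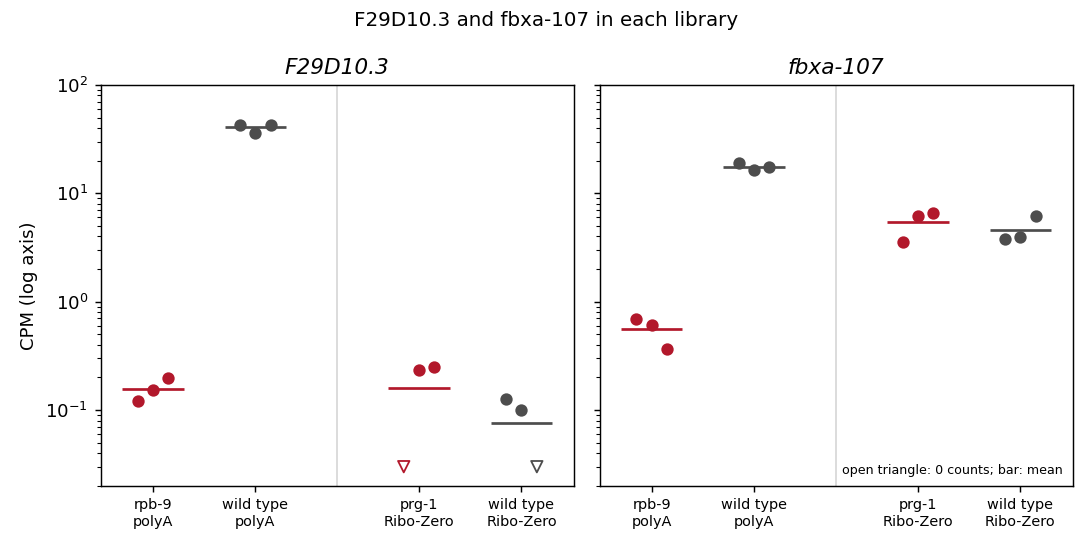
Level of *F29D10.3* (left) and *fbxa-107* (right) in each library, in CPM on a log axis. Points are libraries, bars are means of 3 libraries, and open triangles are libraries with 0 counts. *F29D10.3* was at 40.7 CPM in polyA wild type and below 0.3 CPM in every other library, whereas *fbxa-107* was low only in the polyA libraries of *rpb-9*.

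Over the whole polyA comparison, 15.3% of the 14275 genes tested were called, which needed an adjusted p under 0.01 together with a change of more than 1 on the log2 scale, 1.49% as lower and 13.8% as higher in *rpb-9*. These values were used in choosing *F29D10.3* and *fbxa-107*, which stood next to each other near the bottom of the table, with only 1 gene below them. That gene was *acdh-1*, an acyl-CoA dehydrogenase on chromosome I, at −10.41 (SE 0.66). It had 6, 10 and 5 counts in *rpb-9*, against 2466, 10932 and 9402 counts in wild type, a much wider wild-type spread than that of either member. Next above them came *bath-24* at −4.92 (SE 0.33) and *bath-19* at −4.82 (SE 0.25), both on chromosome II and both of a family with MATH and BTB domains. BTB proteins are known as substrate adaptors of another class of cullin ligase, built on CUL-3. *bath-24* had 10, 7 and 5 counts in *rpb-9*, against 183, 140 and 180 counts in wild type.

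The patterns most like those of the members were sought among the other 212 genes called lower, by Pearson's r of log2(CPM + 1) over the 6 polyA libraries. For *F29D10.3* these were *dyf-3* and *mig-14*, with r of 0.999 and 0.998, and *ZK856.16*, with 0.998. For *fbxa-107* they were *dyf-17* with 0.999, *bath-19* with 0.998 and the pseudogene WBGene00015013 with 0.998. The 6 libraries fall into 2 genotypes, and the median r over all 212 genes was 0.972 for *F29D10.3* and 0.969 for *fbxa-107*, so these values mostly say that the genes were called lower. *dyf-3* and *dyf-17* are known from mutants with defective dye filling of ciliated neurons. *dyf-3* fell to 10, 11 and 17 counts in *rpb-9*, against 123, 137 and 152 counts in wild type, a log2 fold change of −3.85 (SE 0.24). *dyf-17* fell to 22, 17 and 13 counts in *rpb-9*, against 187, 197 and 191 counts in wild type (−3.88, SE 0.24). *mig-14*, the Wntless homologue that sorts Wnt proteins for secretion, kept a far higher level, at 592, 644 and 715 counts in *rpb-9*, against 1405, 1760 and 1622 counts in wild type (−1.71, SE 0.10).

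Whether the loss was limited to a single gene at each locus was examined in all genes whose bodies lie within 20 kb. There were 26 such neighbours, of which 17 passed the filter in polyA RNA, and 6 of these were called (35.3%, beside 15.3% of all genes tested). In *rpb-9*, 3 of the 17 were called higher and 3 lower, beside 13.8% and 1.49% of all genes tested. Their log2 fold changes ran from −1.30 to 2.71, so no neighbour that was tested approached the change of either member.

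Around *F29D10.3*, 6 of 11 neighbours were tested. The nearest on its right, *hum-1*, an unconventional myosin whose body begins 212 bp away on the same strand, had 3681, 4399 and 4861 counts in *rpb-9*, against 3513, 4439 and 4085 counts in wild type. Its log2 fold change was −0.31 (SE 0.10, adjusted p = 0.0288), and it was not called. On the left, 3833 bp away and also on the same strand, *ubr-5*, which encodes a HECT-type ubiquitin ligase, fell to 7380, 13763 and 13357 counts in *rpb-9*, against 19737, 22991 and 20334 counts in wild type. Its log2 fold change was −1.29 (SE 0.21, adjusted p = 0.00202), and it was called lower under each of the 11 alternative settings. A pair of genes from the far left of the window were called higher at low counts. *F36A2.11*, which encodes a BAR domain protein, had 16, 13 and 17 counts in *rpb-9*, against 0, 2 and 3 counts in wild type (2.71, SE 0.55, adjusted p = 0.00458). The ratio of its summed counts, scaled by library totals, was 6.89, with a 95% exact counting interval of 2.75 to 22.2. *F36A2.12*, described as a thymosin beta protein, had 28, 17 and 24 counts in *rpb-9*, against 2, 6 and 5 counts in wild type (1.97, SE 0.38, adjusted p = 0.00402). Both passed the filter through the *rpb-9* libraries alone, and could not be fitted without any of those. The call of *F36A2.11* was lost without wild-type replicate 2 or 3 (adjusted p = 0.0192 and 0.0103). That of *F36A2.12* was lost without wild-type replicate 1, 2 or 3 (adjusted p = 0.0152, 0.0134 and 0.0175). *F36A2.14* had a log2 fold change of 1.25 (SE 0.37, adjusted p = 0.0222), and *ztf-26*, a zinc finger gene, one of 0.60 (SE 0.24, adjusted p = 0.0667).

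The nearest gene on the left of *F29D10.3*, *F29D10.2*, ends 229 bp away on the opposite strand and was below the filter. It had 0, 0 and 1 counts in *rpb-9*, against 9, 13 and 7 counts in wild type. The genotypes did not overlap, and the ratio of summed counts, scaled by library totals, was 0.0258, with a 95% exact counting interval of 0.000633 to 0.156. *F29D10.1*, 1389 bp away, had 7, 5 and 7 counts in *rpb-9*, against 22, 9 and 30 counts in wild type. With no filter on low counts, both were called lower. Their levels in wild type were far below those of *F29D10.3*, and no strand option is named for the counting, so reads from opposite strands cannot be told apart where transcripts overlap.

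Around *fbxa-107*, 11 of 15 neighbours were tested, and the 2 nearest on its right were lower together with it. *fbxa-210* begins 130 bp from the end of *fbxa-107* on the same strand. It fell to 930, 673 and 789 counts in *rpb-9*, against 1342, 1545 and 1526 counts in wild type, without overlap (−1.30, SE 0.13, adjusted p = 0.000307). *fbxa-211*, 2442 bp away on the same strand, fell to 143, 142 and 174 counts in *rpb-9*, against 272, 286 and 278 counts in wild type (−1.29, SE 0.15, adjusted p = 0.000511). Both were called lower under each of the 11 alternative settings. All 1122 windows of *fbxa-210* and all 859 of *fbxa-211* were unique in the genome by the measure used for the members, and neither gene matched *fbxa-107* in a blastn search of the *fbxa* genes. Beyond them, *Y37H2A.12* and *Y37H2A.18*, which also encode F-box domain proteins, had log2 fold changes of −0.11 (SE 0.21) and −0.17 (SE 0.21), and their genotypes overlapped.

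The sequence between *fbxa-107* and *fbxa-210* is given because the 2 adjacent genes were both lower. It covers the 129 bases of chrV:18125246-18125374 on the plus strand, the strand of both genes, and capitals mark the letters TTTCAG, which resemble the splice acceptor consensus of *C. elegans*.
interval: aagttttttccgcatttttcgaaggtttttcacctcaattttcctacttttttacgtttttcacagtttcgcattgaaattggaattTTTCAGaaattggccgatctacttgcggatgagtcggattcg
The letters occurred once in the interval on this strand and not on the other. Among 129-base windows just upstream of 19652 protein-coding genes, 24.7% held them on the strand of the gene and 31.1% on either strand.

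The remaining neighbours of *fbxa-107* changed less or in the other direction. Over all 11 tested neighbours of *fbxa-107* the median log2 fold change was −0.71, and only *Y37H2A.14* had a positive one. The median was 0.92 over the 6 tested neighbours of *F29D10.3* and 0.14 over all genes tested. *Y37H2A.14*, an uncharacterized gene 18493 bp to the right, rose to 108, 139 and 204 counts in *rpb-9*, against 19, 35 and 32 counts in wild type (1.97, SE 0.28, adjusted p = 0.00098). On the left, the kinase gene *par-4* had a log2 fold change of −0.71 (SE 0.13, adjusted p = 0.00268) and *Y37H2A.1*, a deoxyribonuclease homologue, one of −0.48 (SE 0.09, adjusted p = 0.00397). Neither was called, because the change was too small. The pseudogenes WBGene00012568 and WBGene00012569 stood at −0.86 (SE 0.21) and −0.94 (SE 0.22), *Y37H2A.7* at −0.43 (SE 0.23) and *Y37H2A.13* at −0.80 (SE 0.46). The nearest feature on the left, the pseudogene WBGene00050935, was below the filter, with 7, 3 and 4 counts in *rpb-9*, against 7, 10 and 12 counts in wild type. Just outside the window, the first tested genes were *slr-2* at −0.59 on the left of *fbxa-107*, and *F36A2.9* at −0.27 and *linc-84* at 1.25 on either side of *F29D10.3*, none of them called. On the right of *fbxa-107* the first tested gene was WBGene00045348, 31279 bp away, which was called higher at 1.28 (adjusted p = 0.000657).

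**Figure D2:**
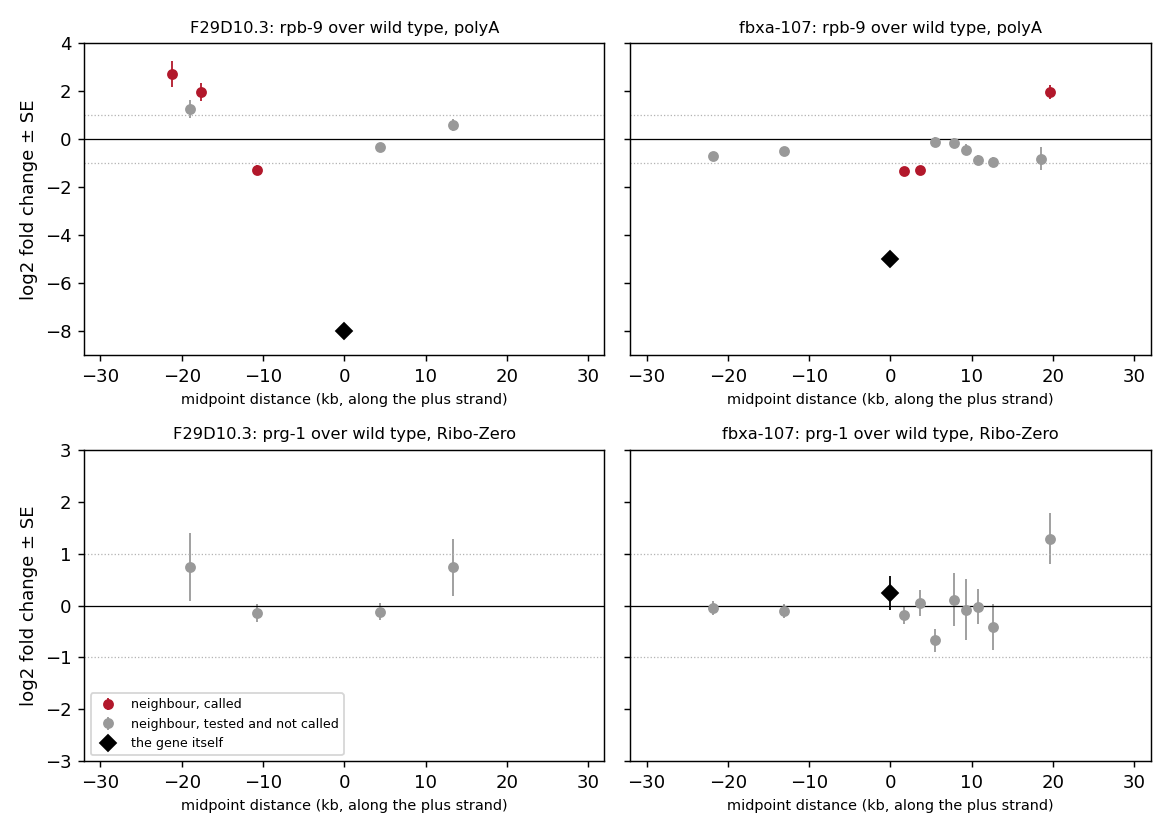
Log2 fold change with its SE (vertical axis) of each tested gene within 20 kb of *F29D10.3* (left) and *fbxa-107* (right), by distance between midpoints in kb along the plus strand. The upper panels show *rpb-9* over wild type in polyA RNA and the lower panels *prg-1* over wild type in Ribo-Zero RNA, on different vertical scales; dotted lines mark log2 fold changes of 1 and −1. In polyA RNA the members stood at −7.98 and −4.98 and their tested neighbours between −1.30 and 2.71, and *F29D10.3* has no point in the lower panel because it was below the filter.

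Most called genes of the *fbxa* family moved in the other direction from *fbxa-107*. The same held for the whole polyA comparison, where 90.2% of all calls were higher in *rpb-9*, so this direction is not particular to the family. Of the 170 *fbxa* genes in the table, 98 passed the filter in polyA RNA, and 33 of these were called higher (33.7%) and 5 lower (5.10%) in *rpb-9*, beside 13.8% and 1.49% of all genes tested. Without *fbxa-107*, 4 of 97 were called lower. Their median log2 fold change was 0.91, beside 0.14 over all genes tested. Of the 33 called higher, 6 had under 10 counts in every wild-type library and so passed the filter through the *rpb-9* libraries alone.

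The other *fbxa* genes called lower beside *fbxa-210* and *fbxa-211* were *fbxa-192* and *fbxa-184*. *fbxa-192*, also on chromosome V, fell to 390, 315 and 379 counts in *rpb-9*, against 988, 1190 and 1254 counts in wild type (−2.08, SE 0.12, adjusted p = 3.94e-05). *fbxa-184*, on chromosome II, fell to 21, 24 and 24 counts in *rpb-9*, against 46, 58 and 43 counts in wild type (−1.50, SE 0.23, adjusted p = 0.00136), and lost its call without *rpb-9* replicate 3 (adjusted p = 0.0109). The close sequence relative *fbxa-108* had 499, 317 and 440 counts in *rpb-9*, against 389, 429 and 418 counts in wild type, at 16.3 CPM in wild type, near the 17.5 CPM of *fbxa-107*. Its log2 fold change was −0.40 (SE 0.18, adjusted p = 0.0866), and it was not called.

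The largest increases in the family were of genes with almost no counts in wild type. *fbxa-164* had 13, 14 and 21 counts in *rpb-9*, against 0, 0 and 2 counts in wild type, a ratio of 18.0 with a 95% exact counting interval of 4.71 to 153. *fbxa-88* had 19, 20 and 26 counts in *rpb-9*, against 0, 2 and 1 counts in wild type, a ratio of 16.2 (5.31 to 80.8). *fbxa-163* had 28, 13 and 13 counts in *rpb-9*, against 1, 2 and 1 counts in wild type, a ratio of 10.1 (3.73 to 38.5). These genes had little transcript in wild type, and the intervals cover counting error only. The calls of *fbxa-163* and *fbxa-164* were lost without wild-type replicate 2 (adjusted p = 0.0137 and 0.0111), and that of *fbxa-163* also without wild-type replicate 1 or 3. *fbxa-143* rose to 39, 61 and 67 counts in *rpb-9*, against 2, 7 and 6 counts in wild type (3.04, SE 0.38, adjusted p = 0.000655). *fbxa-172* had 22 counts in each *rpb-9* library, against 2 in each wild-type library (2.98, SE 0.35, adjusted p = 0.000486), after its fractional counts had been rounded. Like the genes named before them, *fbxa-143* and *fbxa-172* passed the filter through the *rpb-9* libraries alone. Their adjusted p-values depend on that and are given as a description.

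**Figure D3:**
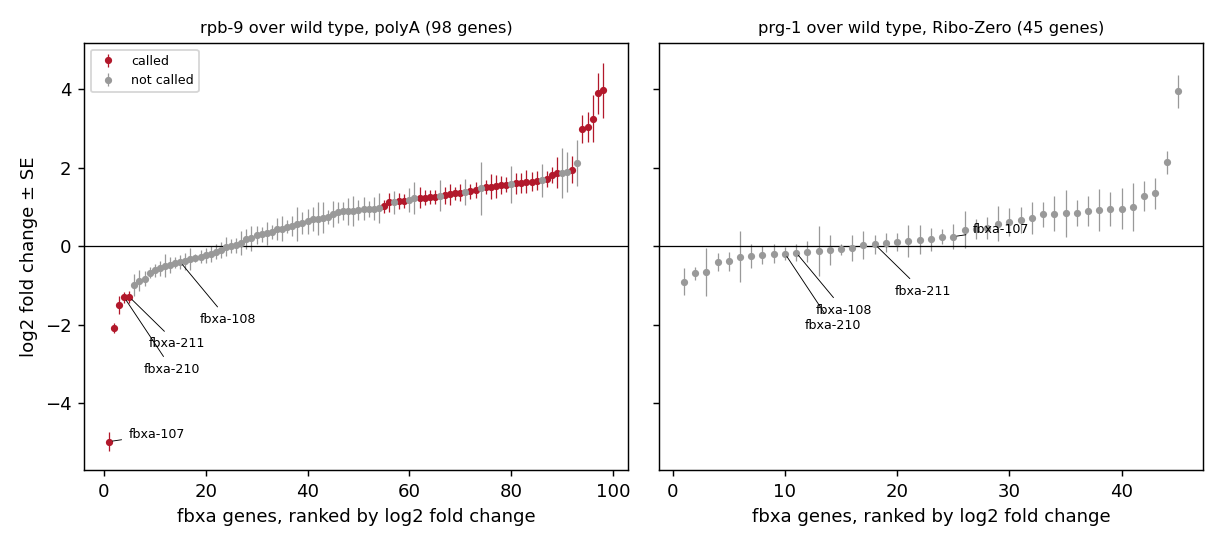
Log2 fold change with its SE of every tested *fbxa* gene, ranked along the horizontal axis, for *rpb-9* over wild type in polyA RNA (left, 98 genes) and *prg-1* over wild type in Ribo-Zero RNA (right, 45 genes). Called genes are red and the others grey. *fbxa-107* is the lowest at −4.98 on the left, where 5 genes were called lower and 33 higher, and is near 0 on the right.

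The partners of F-box proteins in the SCF ligase were followed with *cul-1*, *rbx-1*, *rbx-2* and the *skr* genes, 23 genes of which 22 were tested. In *rpb-9*, 6 rose (27.3%, beside 13.8% of all genes tested) and none was called lower (beside 1.49%) by edgeR, with 4 at a log2 fold change below 0 and an unadjusted p under 0.05, while DESeq2 called 6 higher and 1 lower. All 6 were *skr* genes. *skr-12* rose to 296, 254 and 310 counts in *rpb-9*, against 46, 64 and 61 counts in wild type (1.91, SE 0.16, adjusted p = 0.000149). *skr-5* rose by 1.61 on the log2 scale, *skr-10* by 1.56, *skr-8* by 1.34, *skr-13* by 1.17 and *skr-9* by 1.09. The counts of *skr-5* were whole numbers in every polyA library. Those of *skr-8*, *skr-9*, *skr-10*, *skr-12* and *skr-13* included fractions of reads that map to several places. Close copies can blur such counts, so the latter need not be separate rises. The calls of *skr-8*, *skr-9* and *skr-13* were lost in several of the fits that left out a library, with adjusted p up to 0.0156, 0.0385 and 0.0179. The core subunits were not called. *cul-1* stood at −0.59 (SE 0.15, adjusted p = 0.0113) and *rbx-1* at −0.32 (SE 0.10, adjusted p = 0.0227), while *rbx-2* stood at −0.05 (SE 0.13, adjusted p = 0.786). *skr-2*, a main Skp1 homologue beside *skr-1*, stood at −0.99 (SE 0.10, adjusted p = 0.000239), just short of the threshold for the change. *skr-1* itself stood at 0.16 (SE 0.10, adjusted p = 0.187), so these core genes did not move in a single direction.

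The members were not chosen on their values in the *prg-1* libraries, from a mutant of the piRNA pathway, and only *fbxa-107* could be compared there. Of 11794 genes tested there, 0.119% (14 genes) were called, with 2225 at an unadjusted p under 0.05. DESeq2 called 335, and leaving out 1 library gave between 0 calls and 547 (without *prg-1* replicate 3), so this count was unstable. *fbxa-107* had 30, 53 and 53 counts in *prg-1* animals, against 30, 39 and 44 counts in wild-type animals. The genotypes overlapped, at 5.44 ± 1.62 CPM in *prg-1* and 4.62 ± 1.31 CPM in wild type (SD, n = 3 each). The log2 fold change was 0.24 (SE 0.32, adjusted p = 0.681 by edgeR, Benjamini-Hochberg), and it ran from 0.11 to 0.49 over the 11 alternative settings. A loss of the size seen in *rpb-9* polyA RNA was not seen in *prg-1*, although the tables differ in library type as well as in mutant. *fbxa-210* was not called either, and its genotypes overlapped, with 138, 118 and 159 counts in *prg-1*, against 131, 205 and 141 counts in wild type (−0.19, SE 0.17, adjusted p = 0.549). Of the 26 neighbours, 14 were tested and none was called by edgeR or DESeq2, with 2 at an unadjusted p under 0.05 and a smallest adjusted p of 0.193. Of 45 *fbxa* genes tested, none was called by edgeR, with 8 at an unadjusted p under 0.05, and DESeq2 called 2 higher.

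*F29D10.3* could not be compared in these libraries, because it was almost absent from all of them. It had 0, 2 and 2 counts in *prg-1* animals, against 1, 1 and 0 counts in wild-type animals. At its polyA wild-type level of 40.7 CPM, the 6 Ribo-Zero libraries would have held between 292 and 405 counts each. The wild-type strain has the same name in both tables, yet *F29D10.3* had 40.7 CPM in its polyA libraries and 0.0758 CPM in its Ribo-Zero libraries. The summed 2 counts of the Ribo-Zero wild-type libraries allow 0.00968 to 0.289 CPM (95% exact Poisson interval, counting error only). The polyA level was therefore 508 times the pooled Ribo-Zero level, with an interval of 141 to 4199. The tables were normalized separately, so the median gene at 10 CPM or more in polyA wild type serves as the scale. Its ratio of polyA to Ribo-Zero level was 2.48, and that of *fbxa-107* was 3.79.

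No other well detected gene differed as much between the 2 kinds of wild-type library. Of 6919 tested genes at 10 CPM or more in polyA wild type, it was the only 1 with at most 3 counts in every Ribo-Zero wild-type library. The gene with the next highest ratio, the cuticle collagen *col-107*, had a ratio of 20.9, with 10.7 CPM in polyA and 0.513 CPM in Ribo-Zero wild type. The wild-type level of *F29D10.3* in Ribo-Zero RNA was below 0.3 CPM, as was its *rpb-9* level in polyA RNA. Thus 3 of the 4 groups of libraries held little of the transcript, and the polyA wild-type libraries stood apart from them. The tables differ in selection of RNA, in library kit and in experiment, and the part of each cannot be told apart. The low counts of *F29D10.2* do not extend this comparison. It had 0, 1 and 1 counts in *prg-1* and 0, 1 and 0 counts in wild-type Ribo-Zero libraries, but only 2.73 to 3.78 counts would have been reached at its polyA wild-type level.

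**Figure D4:**
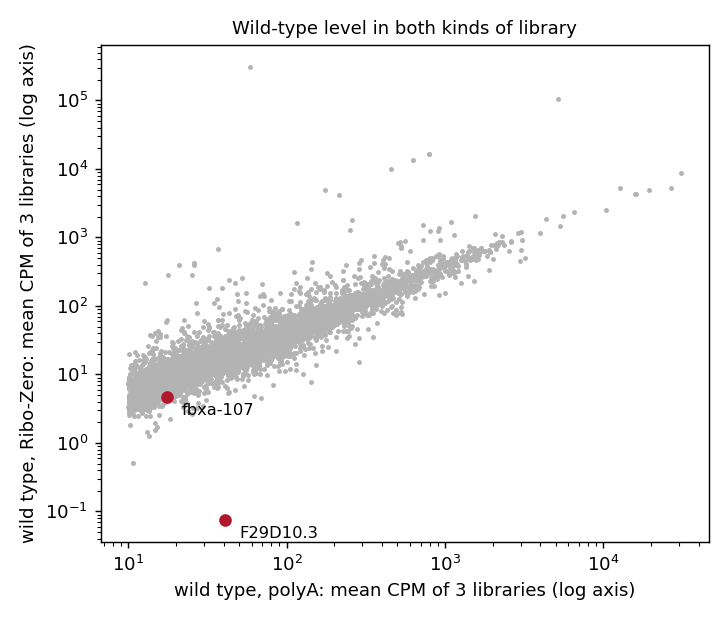
Mean CPM of 3 wild-type libraries in polyA RNA (horizontal) and Ribo-Zero RNA (vertical), both on log axes, for the 6919 tested genes at 10 CPM or more in polyA wild type. Each grey point is a gene and red points are the members. *fbxa-107* lies at 17.5 and 4.62 CPM within the cloud, while *F29D10.3* lies at 40.7 and 0.0758 CPM, below every other gene.

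The other PAN-3 domain genes were at too low a count to show a loss. By RefSeq product name, a list made after the values had been seen, 40 genes of the table carry this description, and *F29D10.3* was the only 1 that passed the filter in polyA RNA. The highest count of the other 39 in any polyA library was 12, in *Y73F8A.22*.

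The levels of each gene can be put in order over the 4 groups, bearing in mind that the tables were scaled separately. For *F29D10.3*, the levels in *rpb-9* polyA RNA (0.156 CPM), *prg-1* Ribo-Zero RNA (0.160 CPM) and wild-type Ribo-Zero RNA (0.0758 CPM) lay within the spread of the Ribo-Zero libraries, and polyA wild type stood above them. For *fbxa-107* the order was *rpb-9* polyA RNA (0.555 CPM), wild-type Ribo-Zero RNA (4.62 CPM), *prg-1* Ribo-Zero RNA (5.44 CPM) and wild-type polyA RNA (17.5 CPM), and the middle levels did not differ beyond their spread.

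The labels were checked on the piRNA sensor, which the *rpb-9* allele was isolated for releasing from silencing. It had 2087, 2376 and 2620 counts in *rpb-9*, against 33, 30 and 31 counts in polyA wild type. In *prg-1* animals it had 163, 184 and 231 counts, against 31, 30 and 35 counts in Ribo-Zero wild type. The *rpb-9* gene itself had a log2 fold change of −0.48 (SE 0.20, adjusted p = 0.0778) in *rpb-9*, which does not check the label of an allele with a stop codon, and *prg-1* fell by 1.53 on the log2 scale in *prg-1* (SE 0.12, adjusted p = 0.00379). Gene counts summed to 27118138 to 36206726 per *rpb-9* library and 24089008 to 30738443 per polyA wild-type library. The Ribo-Zero libraries held 6099453 to 9694120 counts in *prg-1* and 7790756 to 9881058 counts in wild type, with 34.2% to 48.4% of them on ribosomal RNA genes. In polyA RNA these genes held 7.93% in *rpb-9* replicate 3 and 0.508% to 0.690% in the other libraries. Without that library the log2 fold changes of *F29D10.3* and *fbxa-107* were −8.09 and −4.66.

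Marker genes of several tissues also differed between the genotypes in the polyA libraries. Summed over 16 sperm genes, the level was 56.0 to 70.5 CPM in *rpb-9* and 12.0 to 15.2 CPM in wild type. Of the 15 tested, 13 were called higher and 1 lower, beside 13.8% and 1.49% of all genes tested. Summed over 10 oocyte and early embryo genes it was 5750 to 7139 CPM in *rpb-9* and 11265 to 11735 CPM in wild type. None of these 10 genes was called, and their median log2 fold change was −0.75. The sums were 2038 to 3362 CPM in *rpb-9* and 1409 to 1805 CPM in wild type over 8 body wall muscle genes, and 31760 to 61347 CPM in *rpb-9* and 72725 to 85114 CPM in wild type over 8 intestine genes. The median log2 fold change of these intestine genes was nevertheless 0.31, with 1 called higher and none lower, against the direction of their sum. Over 8 neuronal genes the sums were 197 to 212 CPM in *rpb-9* and 162 to 195 CPM in wild type. In the muscle list and in the neuronal list, 1 gene was called higher and none lower. In the Ribo-Zero libraries the sperm sums were 18.5 to 271 CPM in *prg-1* and 41.3 to 94.1 CPM in wild type. Those of body wall muscle were 2873 to 8204 CPM in *prg-1* and 2883 to 4666 CPM in wild type. The *prg-1* libraries thus differed widely among themselves. Oocyte and early embryo sums were 2640 to 3606 CPM in *prg-1* and 3613 to 4739 CPM in wild type. No listed gene was called there, beside 0.119% of all genes tested. No gene of these lists was at 0 in every library. The part of these marker differences in the results was not tested, and in whole animals fewer cells of a type and less RNA per cell cannot be told apart.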

How the data were processed

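The authors deposited expected counts per gene, without normalization, for whole-animal polyA and Ribo-Zero RNA libraries. They aligned reads with STAR v2.5.4b to ce11 plus the piRNA sensor (up to 5000 loci, 2 mismatches, end to end, no introns) and counted exons with featureCounts v1.6, splitting multi-mapped reads into fractions. Reads across exon junctions were therefore lost. Columns are named by strain. The strain that both tables share was taken as the wild type, and the remaining strain of either table as its mutant. The labels list 2 lanes per Ribo-Zero replicate, and the table holds 1 column for each. Tables with 24 columns that could not be paired with a genotype were left out, and with them the *rpb-9* Ribo-Zero libraries and the 22G siRNAs, which are not analysed here.

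Rounded counts were tested by edgeR 4.0.16 under R 4.3.3 (quasi-likelihood test, TMM factors, genotype alone in the model). Genes reaching 10 counts in 3 or more libraries entered, and p-values were adjusted over all of them by Benjamini-Hochberg. A call needed an adjusted p under 0.01 and a change of more than 1 on the log2 scale in either direction. SEs were obtained from the fold change and the F statistic. The test was tried on simulated counts. CPM used TMM-scaled totals. Window uniqueness was counted with bwa 0.7.19 and relatives were sought with blastn 2.17.0. Symbols and products came from RefSeq and WormBase tables of WBcel235, and 43720 of 46740 genes had a symbol. Coordinates are 1-based. Intervals and floors cover counting error alone, since reads that carry no molecular identifier need not be separate molecules.

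Named genes are the members, each tested neighbour within 20 kb, the nearest neighbour on each side, the 5 most raised and 5 most lowered of the called *fbxa* genes, called SCF genes, the 3 genes most like each member, the 5 lowest genes and the label checks. *fbxa-108*, *F29D10.1*, *cul-1*, *rbx-1*, *rbx-2*, *skr-1*, *skr-2*, *col-107*, *Y73F8A.22* and the genes just outside the window were added after their values were seen. The members, lists and tests were chosen with earlier results of these data known. For same-numbered *prg-1* and wild-type libraries, the deviations from their genotype means correlated at 0.154, 0.356 and 0.433, against −0.488 to 0.322 between other pairs. These ranges overlap and the labels name no pairing, so whether the libraries were paired is not known. The values given are from the fit without a pairing, and the fit with the replicate number as a block is among the alternatives. The alternatives were DESeq2 1.42.0, its size factors (RLE), library size alone, the replicate number as a block, each library left out, a 50 kb window and no filter on low counts.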

Additional observations from a re-analysis of the deposited data

How the results depend on the processing

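The log2 fold change of *F29D10.3* in *rpb-9* polyA RNA ran from −8.11 to −7.74 over 8 alternatives and that of *fbxa-107* from −5.13 to −4.66 over 11. *F29D10.3* has no value without a wild-type library, because only 2 libraries then reach 10 counts. Called genes in polyA RNA numbered 2179, and 1132 to 2081 when 1 library was left out, with the lowest counts without *rpb-9* replicate 3 (1132) or replicate 2 (1344) and wild-type replicate 3 (1338) or replicate 2 (1429). Library size alone shifted the median of all genes by 0.26 and gave 3214 calls, and no filter gave 3182. In the *prg-1* table, 14 genes were called by edgeR, 335 by DESeq2, 22 with library size alone and 724 without the filter. Leaving out a library gave 0 to 547 calls, 547 of them without *prg-1* replicate 3 and 0 without any other library. The called neighbours numbered 6, 4 to 5 with a library left out, and 11 in the 50 kb window (of 39 tested). None was called in the *prg-1* table under any setting. The called *fbxa* genes numbered 38, 24 to 37 with a library left out (24 without *rpb-9* replicate 3 and 25 without wild-type replicate 3), and 59 without the filter. The called SCF genes numbered 6, 4 to 6 with a library left out, and 10 with library size alone.

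*Y37H2A.12* and *Y37H2A.18* turned to 0.178 and 0.107 with library size alone. With a library left out, *Y37H2A.12* ran from −0.341 to 0.09 (above 0 without *rpb-9* replicate 2 or 3) and *Y37H2A.18* from −0.315 to 0.019 (above 0 without *rpb-9* replicate 3). The cause of these shifts was not tested. Over all named genes, 26 values lost their call, 403 kept their side and 4 gained a call, 3 of them of the pseudogene WBGene00012569 and 1 of *F36A2.14*.

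With the replicate number as a block, polyA RNA gave 1941 called genes, 4 called neighbours (*F36A2.11* and *F36A2.12* lost theirs, adjusted p = 0.0128 and 0.0124), 38 *fbxa* genes and 5 SCF genes (*skr-9* lost its call, adjusted p = 0.0142). Same-numbered polyA libraries correlated at 0.0574, 0.108 and −0.136, so they share a number only. The block fit of the *prg-1* table gave 21 called genes and 0.23 for *fbxa-107*. Genes at 10 CPM in polyA wild type with at most 3 counts in each Ribo-Zero wild-type library numbered 1, likewise 1 from 5 CPM and 2 with at most 10 counts, both chosen after seeing the data. In Ribo-Zero RNA, 3 counts correspond to 0.302 to 0.418 CPM, so depth limits the comparison of *F29D10.3* below that level only. At its polyA wild-type level, these libraries would have held 292 to 405 counts each.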
